A study of Mus musculus with 20 samples.

Results

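Insulin and insulin-like growth factor (IGF) signaling was examined through 10 genes in the hippocampus of adult mice that had been exposed to air pollution particles before birth. The genes were selected by symbol among the 48709 genes of the count table. They were the ligand Igf1, the receptors Igf1r and Insr, the adaptors Irs1 and Irs2, and the secreted IGF binding proteins Igfbp2, Igfbp3, Igfbp4, Igfbp5 and Igfbp6. All 10 passed the filter on low counts, which kept 19797 genes.

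The study sequenced RNA of the right hippocampus from 20 C57BL/6 mice, 5 in each of 4 groups. Dams of the nPM females and nPM males had inhaled nPM, the nanoscale part of particulate matter collected from urban traffic air, during sessions of 5 h on 3 days of each week, from gestational day 2 until birth. Dams of the control females and control males had inhaled filtered air on the same schedule. The labels write the concentration as 300 mg/m3, where the study's methods have the unit μg. The exposed animals were the dams, so the adult offspring were not inhaling particles when they were sampled. Females were 17.71 to 18.29 weeks old and males 18.57 to 19.14 weeks by the labels. The study's methods also describe EdU injections before tissue collection, made to count new neurons in males. They name male mice as injected and also state that every animal received EdU, so whether females did is unclear. Sex and age therefore cannot be told apart, nor can these injections if only males had them. Which offspring shared a litter is not given, so the p-values measure the spread between these animals, some of which may have been littermates.

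Insulin and IGF1 bind the insulin receptor (INSR) and the IGF1 receptor (IGF1R), related tyrosine kinases that phosphorylate the adaptors IRS1 and IRS2. The adaptors recruit phosphoinositide 3-kinase (PI3K), which leads to AKT, the mTOR complexes and the FOXO transcription factors. The binding proteins hold IGF1 and IGF2 outside the cell and set how much ligand reaches the receptors. In the brain, IGF1 is made locally by interneurons and microglia among other cells, IGF2 is made by the choroid plexus and the meninges, and the pathway is known for its part in neuron survival, the birth of neurons in the dentate gyrus, synaptic plasticity and energy use.

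Libraries held 19092067 to 38663408 counts on genes, and a count of 0 allows up to 3 counts. The hippocampal marker lists were present in every library, with all 5 markers each of CA1, CA3 and the dentate gyrus past the filter. The hippocampus touches the choroid plexus, and 7 libraries had more than 1000 CPM (a gene's counts scaled to the total of its library) on 12 choroid plexus markers: control male 2, 4 and 5, nPM male 2 and 3, and nPM female 1 and 5. Blood markers summed to more than 10 CPM in 3 libraries, control male 1 (43.0 CPM), nPM male 1 (30.0 CPM) and nPM male 2 (56.9 CPM), against at most 6.57 CPM in the other 17 libraries. Several results below are given with and without these libraries. In bulk RNA, fewer cells of a type and less RNA per cell cannot be told apart.

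Promoter sequences are shown for 3 genes that stand out in the values below. Igfbp2 and Igfbp5 are neighbors on chromosome 1 that differed widely in their spread between animals, and Igf1r had the smallest p of the 10 genes for the difference between the sexes. The 250 bases upstream of the start of each are printed 5′ to 3′ from RefSeq (build GRCm38.p6, the assembly of mm10), in which 9 of the 10 genes, all but Insr, had an entry.
Igfbp2, chr1:72824230-72824479, plus strand: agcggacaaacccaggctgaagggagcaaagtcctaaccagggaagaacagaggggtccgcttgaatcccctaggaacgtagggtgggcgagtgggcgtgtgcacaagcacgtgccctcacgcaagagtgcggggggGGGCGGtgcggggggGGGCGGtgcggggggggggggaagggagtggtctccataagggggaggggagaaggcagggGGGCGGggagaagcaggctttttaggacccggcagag
Igfbp5, chr1:72874866-72875115, minus strand: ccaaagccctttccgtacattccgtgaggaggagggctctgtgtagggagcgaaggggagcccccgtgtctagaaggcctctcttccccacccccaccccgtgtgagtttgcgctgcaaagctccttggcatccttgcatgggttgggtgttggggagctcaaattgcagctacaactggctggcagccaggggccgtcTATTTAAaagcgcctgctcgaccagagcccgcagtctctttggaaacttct
Igf1r, chr7:67952007-67952256, plus strand: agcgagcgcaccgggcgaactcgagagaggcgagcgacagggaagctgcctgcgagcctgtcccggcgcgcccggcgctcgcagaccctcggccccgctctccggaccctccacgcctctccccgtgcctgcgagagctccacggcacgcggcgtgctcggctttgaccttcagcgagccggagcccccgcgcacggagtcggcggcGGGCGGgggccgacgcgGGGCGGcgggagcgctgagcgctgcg
Capitals mark matches to GGGCGG, the core of a GC box that binds Sp1 family factors, or to the TATA-like words TATAAA and TATTTAA, the last of which was added after the Igfbp5 sequence had been seen. Both strands were searched, and the words do not overlap one another in these sequences.

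The Igfbp2 window had 3 GC boxes, 113, 98 and 37 bases before the start, and no TATA-like word. The Igfbp5 window had no GC box and 1 TATTTAA, 51 bases before the start. The Igf1r window had 2 GC boxes, 43 and 26 bases before the start. Its GC content was 77.6%, beside 67.2% for Igfbp2 and 58.8% for Igfbp5. Windows of the other genes with an entry ranged from 49.6% (Igfbp6) to 73.2% (Igfbp3), and the median over 32851 promoters was 52.4%. Among all those promoters, 32.7% held GGGCGG, 12.4% TATAAA and 4.18% TATTTAA. The RefSeq start of Igf1r lies 570 bases from the gene start in the deposited annotation, and those of Igfbp2 and Igfbp5 lie 23 and 19 bases from theirs. A match describes the letters of the window and is not evidence of a bound factor.

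Levels are compared between genes per length, as RPKM (CPM per kilobase of exon) over the 20 animals. Igfbp5, a binding protein of the extracellular matrix, was the most highly expressed of the 10, with a median of 21.4 RPKM (range 17.3 to 28.6) and above the next gene in all 20 animals. Irs2 followed at 10.8 RPKM, Igfbp4 at 9.03, Insr at 7.51, Igfbp2 at 6.83, Igf1r at 6.68, Irs1 at 5.03, Igfbp6 at 4.44, Igfbp3 at 2.41 and Igf1 at 1.19. Several neighbors in this order were not separated: Insr was above Igfbp2 in 11 of 20 animals, Igfbp2 above Igf1r in 11, and Irs1 above Igfbp6 in 12. Irs2 was above Igfbp4 in 15 animals and Igfbp4 above Insr in 15. At the lower end, Igfbp3 was above Igf1 in all 20 animals. Igf1 rested on 199 to 677 counts per library, Igfbp3 on 126 to 596 and Igfbp6 on 49 to 290.

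The 10 genes differed widely in their spread between animals. Insr was the steadiest, with a coefficient of variation of 9.95% in CPM over the 20 animals, followed by Irs1 at 10.5% and Igfbp5 at 12.2%. Igf1, Igf1r, Irs2 and Igfbp4 had coefficients between 17.6% and 19.1%. Igfbp3 reached 42.3%, Igfbp6 48.8% and Igfbp2 101%. Between the lowest and the highest animal, Igfbp2 differed 18.6-fold, Igfbp6 5.26-fold, Igfbp3 3.97-fold and Insr 1.48-fold. The SD of log2 CPM within groups was higher for Igfbp2 than for 98.2% of the 19797 genes, and for Insr higher than for 6.19%.

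**Figure D1:**
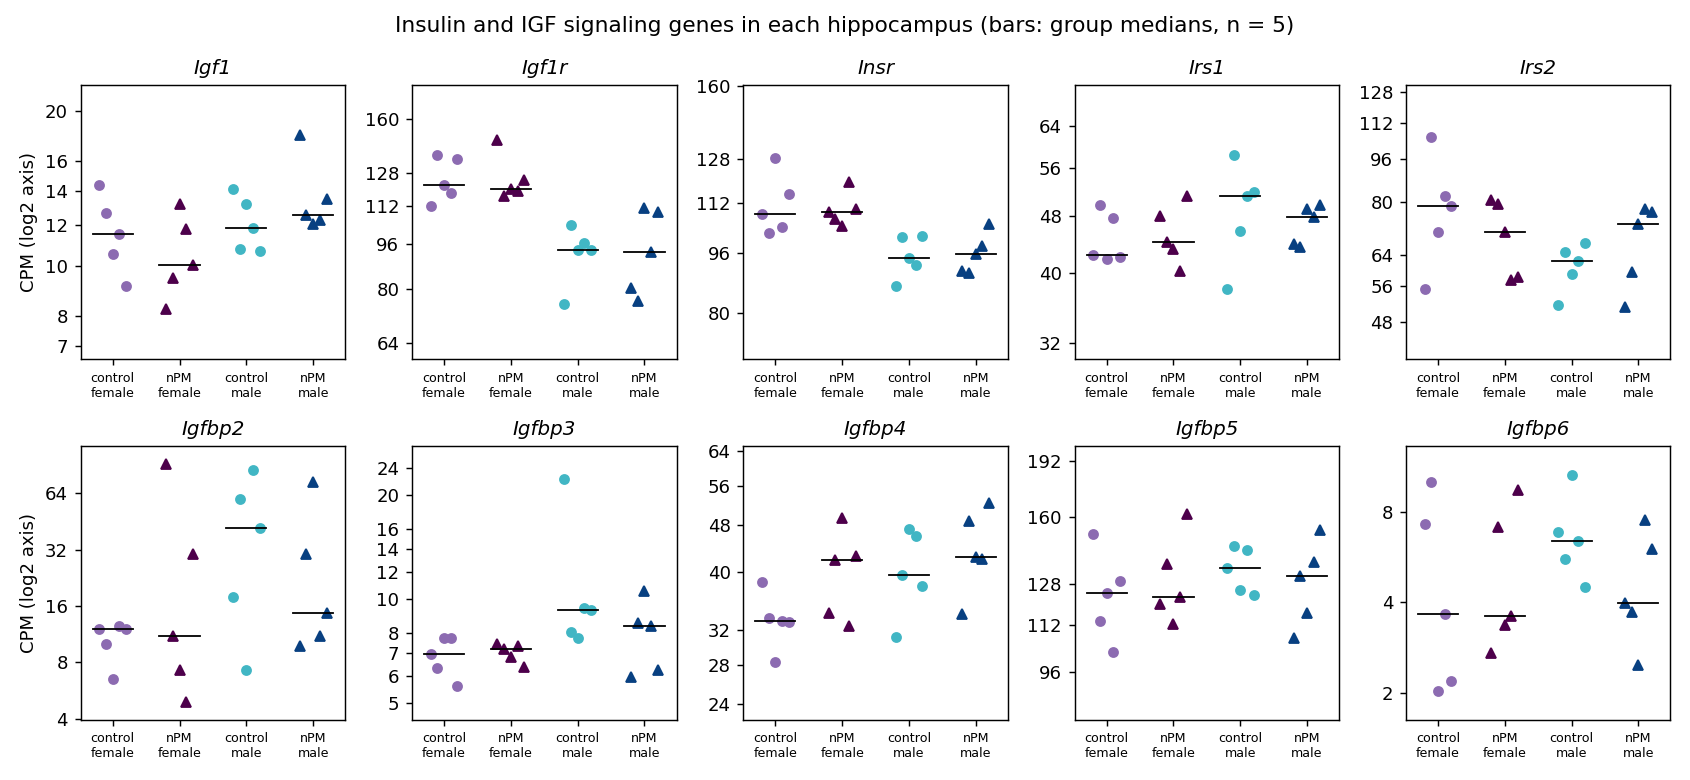
Each panel shows one gene in the 20 hippocampi, with CPM on a log2 axis against the 4 groups; circles are controls, triangles are nPM animals, and black bars are medians of 5. All females lie above all males for Igf1r, whereas the control and nPM animals of either sex overlap for each of the 10 genes, and Igfbp2 ranges from 4.93 to 91.8 CPM.

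The first question was whether gestational nPM changed these genes in adult offspring. Under the threshold of the study's methods, an unadjusted p under 0.005 in limma-voom, 0 of the 10 genes changed with both sexes combined, where 0.141% of all genes passed. In males 0 of 10 passed (0.207% of all genes), in females 0 of 10 (0.0909%), and for the interaction of sex and exposure 0 of 10 (0.217%). At an unadjusted p under 0.05, 1 of the 10 passed in females (Igfbp4), where 1.99% of all genes did, and 0 passed with both sexes (2.1%), in males (4.28%) or for the interaction (3.79%). In every gene the control and nPM values overlapped within each sex, as they did for all but 0.349% of all genes in females and 0.662% in males. Adjusted p-values of the 10 genes were 1 with both sexes and in females, and lay between 0.963 and 0.998 in males and for the interaction. The median log2 fold change of the 10 genes with both sexes was -0.0082, beside -0.0059 for all genes.

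Igfbp4, a binding protein made by several brain cell types that mostly restrains IGF action, came nearest. Control females had 38.5, 33.5, 28.3, 33.1 and 33.1 CPM, and nPM females 34.2, 41.9, 49.5, 32.5 and 42.6 CPM. Control males had 31.1, 39.6, 47.4, 46.1 and 37.9 CPM, and nPM males 34.0, 48.8, 42.4, 42.1 and 52.3 CPM. Of the nPM females 3 were above every control female. Of the nPM males 2 were above every control male, and 1 control male was below every nPM male. The log2 fold change was 0.28 in females (SE 0.12, limma p = 0.0368, exact permutation p = 0.0714), a mean difference of 21.6% with a 95% interval of 1.41% to 45.9%. In males it was 0.11 (SE 0.13, exact permutation p = 0.444), and with both sexes 0.19 (SE 0.094, limma p = 0.0585, n = 10 per exposure). The exact tests were two-sided, and 5 animals against 5 cannot go below 0.00794. Igfbp4 followed the summed level of 8 microglia markers across animals (Pearson's r = 0.71, Spearman's rho = 0.77, n = 20), and its r was 0.58 after group means were removed; the part of microglia in the female difference was not tested.

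Of the receptors, on which the hormones act, Insr had the narrowest interval of the 10 genes. It differed between nPM and control animals by -0.322% with both sexes (95% interval -6.86% to 6.67%, limma p = 0.922, n = 10 per exposure), by 0.788% in males (-8.58% to 11.1%) and by -0.376% in females (-11.5% to 12.2%). Igf1r differed by 0.65% with both sexes (-9.53% to 12%, limma p = 0.901, n = 10 per exposure). The values at this number of animals cannot tell changes inside these intervals apart from no change.

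Igf1, the ligand, was 1.89% higher after nPM with both sexes (95% interval -12.4% to 18.5%, limma p = 0.799, n = 10 per exposure). Its direction differed between the sexes, 13.2% higher in nPM males (-6.57% to 37.2%) and -9.56% different in nPM females (-28.3% to 14.1%), but the interaction did not pass (log2 difference 0.34, SE 0.20, limma adjusted p = 0.987). In CPM, control males had 14.1, 10.8, 13.2, 11.9 and 10.7, and nPM males 17.9, 12.6, 12.1, 12.3 and 13.5. The groups overlapped, and nPM male 1 stood apart from the other 4 nPM males. This library was also 1 of the 3 with raised blood markers, and without it the log2 fold change in males went from 0.18 to 0.060.

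The adaptors showed a similar picture. Irs1 was -1.25% different with both sexes (95% interval -10.3% to 8.67%, limma p = 0.787, n = 10 per exposure), and Irs2 was -0.809% different (-15.1% to 15.9%, limma p = 0.915). Irs2 had 51.6, 64.7, 59.0, 62.4 and 67.3 CPM in control males and 51.3, 59.5, 73.0, 77.7 and 76.6 CPM in nPM males. The lowest animal of each group was a library with raised blood markers, and so was nPM male 2 at 59.5 CPM. Its log2 fold change in males was 0.13 (SE 0.12, limma p = 0.288, exact permutation p = 0.349) with all animals. Without those 3 libraries, a fit of 4 control against 3 nPM males that was added after the data had been seen, it was 0.25 (limma p = 0.00382, exact permutation p = 0.0286, the smallest that 4 against 3 allow). In that fit 59 of the 19797 genes passed the threshold, Irs2 among them, and the other 9 did not. In females the difference had the other sign (-0.14, SE 0.16, exact permutation p = 0.468).

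**Figure D2:**
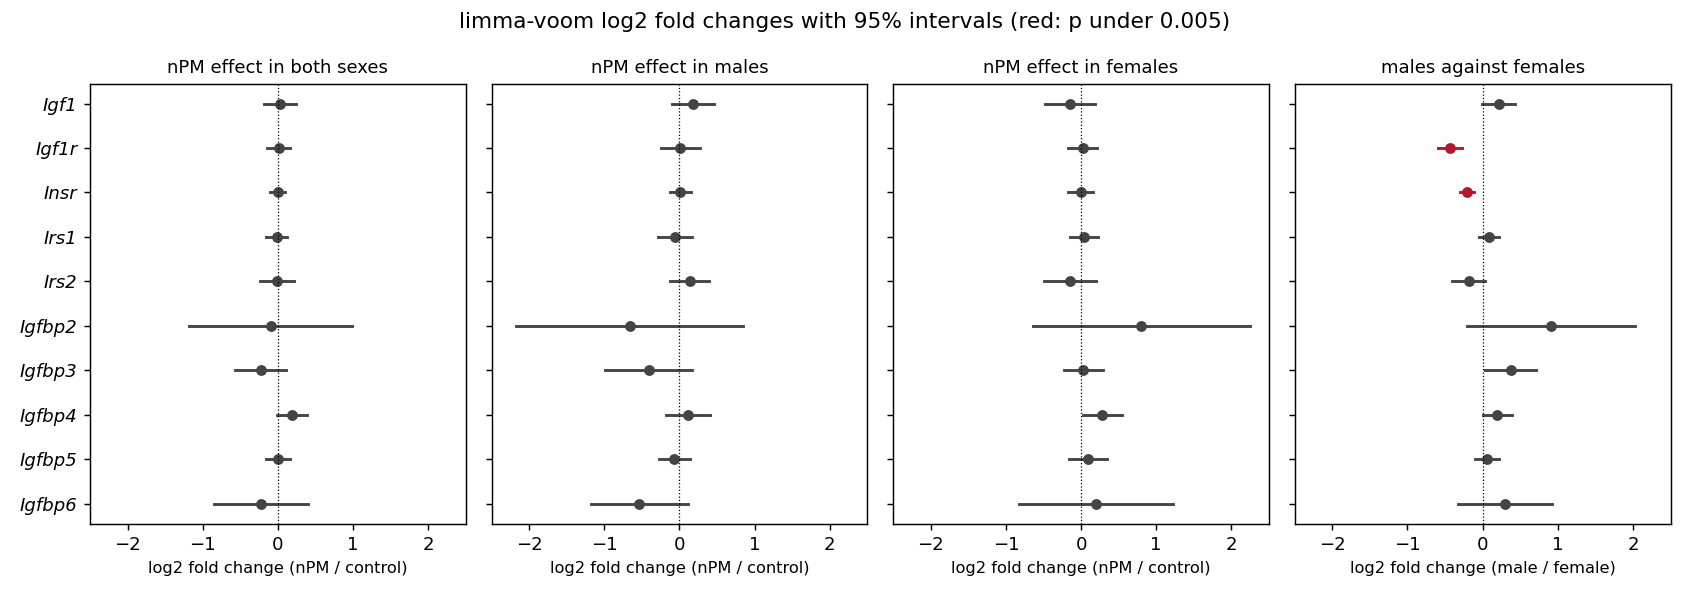
Log2 fold changes of the 10 genes (points) with 95% intervals (lines) from limma-voom for nPM against control in both sexes, males and females, and for males against females; red marks p under 0.005. All nPM intervals except that of Igfbp4 in females include 0, the intervals of Igfbp2 are the widest, and Igf1r (-0.43) and Insr (-0.21) are the red points between the sexes.

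Igfbp2, a binding protein made in abundance by the choroid plexus, was the least determined. Control females had 12, 9.97, 6.49, 12.4 and 12.1 CPM, and nPM females 91.8, 11.1, 7.29, 4.93 and 30.5 CPM. Control males had 17.8, 59.5, 7.31, 84.9 and 41.9 CPM, and nPM males 9.81, 30.2, 73.1, 11.1 and 14.6 CPM. Every animal at 30.2 CPM or more was 1 of the 7 libraries rich in choroid plexus markers, and every other animal had 17.8 CPM or less. The log2 fold change was 0.80 in females (SE 0.67, exact permutation p = 0.437) and -0.66 in males (SE 0.69, exact permutation p = 0.484). With both sexes it was -0.098 (SE 0.52, limma p = 0.854, n = 10 per exposure). Without nPM female 1 the female value was 0.14, and without all 7 libraries it was -0.46 in females and 0.022 in males. None of these values passed the threshold, and the 95% interval with both sexes ran from -56.1% to 98.8%.

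Across the 20 animals, Igfbp2 rose with the summed choroid plexus markers (r = 0.92, rho = 0.87), in females (r = 0.90) and in males (r = 0.93) alike. These markers, which include the transthyretin gene Ttr, ranged from 43.6 to 8835 CPM in sum. Of all genes, Ace (r = 0.99), which encodes the angiotensin-converting enzyme, and Gpx8 (r = 0.98) had the patterns most like that of Igfbp2. Among the other genes of the pathway, Igf2 (r = 0.90), Ins2 (r = 0.90), Igfbp7 (r = 0.76) and the IGF2 clearance receptor gene Igf2r (r = 0.74) also rose with the choroid plexus markers. These correlations are descriptions over libraries that share one dissection and one sequencing protocol.

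Igfbp5 lies beside Igfbp2 on chromosome 1 in the opposite orientation, with 5457 bases between their ends (Igfbp2 at 72824503 to 72852474, plus strand; Igfbp5 at 72857932 to 72874884, minus strand). In contrast to its neighbor, it had 103 to 162 CPM in the 20 animals, with means of 124 ± 18.2 (SD, n = 5) for control females, 131 ± 19.5 for nPM females, 135 ± 9.78 for control males and 129 ± 18.0 for nPM males. All 4 groups overlapped. Its log2 fold change after nPM was 0.0038 with both sexes (SE 0.078, limma p = 0.962, n = 10 per exposure). The r between these neighbors was 0.23, and both followed the meningeal fibroblast markers (r = 0.64 for each). Igfbp5 had Ranbp3l (r = 0.81) and the collagen gene Col5a1 (r = 0.77) as the genes most like it. The promoter windows of the pair held GC boxes for Igfbp2 and a TATA-like word for Igfbp5. Among the other genes, Irs1, with a coefficient of variation of 10.5%, had 2 GC boxes, and Irs2 had 1. Igfbp6, at 48.8%, had no GC box and 1 TATAAA, on the opposite strand, 148 bases before the start. Igfbp4 had 1 TATAAA, 28 bases before the start, and Igf1 and Igfbp3 had none of the words. No link between words and spread was tested.

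**Figure D3:**
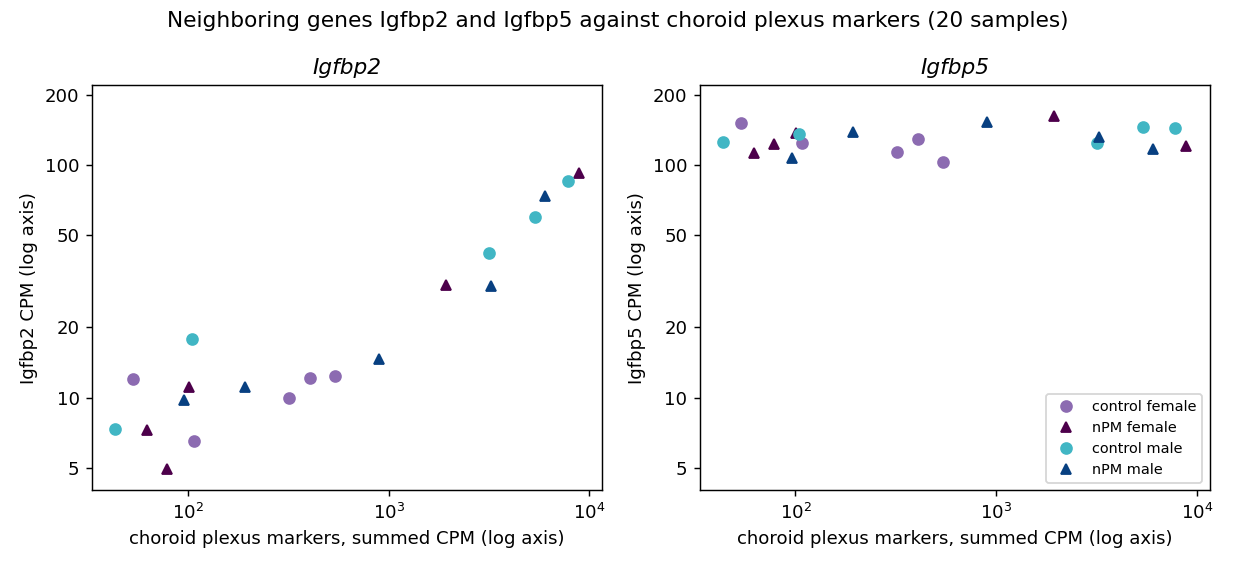
Igfbp2 (left) and its chromosomal neighbor Igfbp5 (right) in CPM against the summed CPM of 12 choroid plexus markers, both axes logarithmic, with one point per animal. Igfbp2 climbs from 4.93 to 91.8 CPM with the markers, while Igfbp5 stays between 103 and 162 CPM.

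Igfbp6, a binding protein with a preference for IGF2, had 7.30, 10.1, 2.03, 3.64 and 2.18 CPM in control females and 2.71, 7.15, 3.37, 3.61 and 9.52 CPM in nPM females. It had 6.86, 5.57, 10.7, 6.40 and 4.50 CPM in control males and 3.98, 3.72, 2.47, 7.54 and 6.05 CPM in nPM males. Of the nPM males 3 were below every control male, and the other 2 lay within the control range. The male log2 fold change was -0.53 (SE 0.30, limma p = 0.0963, exact permutation p = 0.151; -0.34 without nPM male 3), and the female one was 0.20 (SE 0.47, limma p = 0.675). Igfbp6 followed the 5 neocortex markers Fezf2, Cux2, Rorb, Rspo1 and Scnn1a (r = 0.82, rho = 0.83, n = 20), and Cobl (r = 0.91) was among the genes with the patterns most like its own. Its correlation with the dentate gyrus markers was negative (r = -0.58). Whether neocortex in the dissection has a part in the Igfbp6 values was not tested.

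Igfbp3, the main carrier of IGFs in the circulation, had 22.2 CPM in control male 1 and 7.72 to 9.43 CPM in the other 4 control males. Values were 5.96, 8.52, 10.5, 8.34 and 6.26 CPM in nPM males. Females lay between 5.61 and 7.71 CPM in both groups. The male log2 fold change of -0.41 (SE 0.27, exact permutation p = 0.222) became -0.17 without control male 1, which was also 1 of the libraries with raised blood markers. It was -0.088 without the 3 libraries rich in blood markers and -0.95 without those rich in choroid plexus markers, where control male 1 was 1 of the 2 control males left. None of these values passed the threshold. Fam213a (r = 0.91) and Dnajc10 (r = 0.87) had the most similar patterns to Igfbp3 over the 20 animals, although for Fam213a r was 0.37 in females alone.

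The second question was whether the sexes differed, since the study analyzed males and females apart. With exposure as a covariate, 6147 genes passed p under 0.005 between males and females, 31.1% of all genes, so that a call for any one gene was common. Of the 10 genes, 2 passed and both were lower in males, Igf1r and Insr (17.1% of all genes were called lower in males and 13.9% higher). At an adjusted p under 0.05 the same 2 passed, beside 40.4% of all genes. The other 8 did not pass, though Igfbp3 (0.37 higher in males, SE 0.16, limma p = 0.0340, n = 10 per sex, but 0.23 without control male 1) and Igfbp4 (0.20 higher, SE 0.094, limma p = 0.0489) had an unadjusted p under 0.05, as did 48.4% of all genes. The median log2 difference of the 10 genes, male minus female, was 0.14, against 0.019 over all genes. In size, irrespective of sign, the median was 0.21 for the 10 genes and 0.23 for all genes.

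Igf1r (chromosome 7, 67952827 to 68233668, plus strand) encodes the receptor through which IGF1 acts on neurons and glia. Control females had 112, 138, 122, 118 and 135 CPM, and nPM females 147, 116, 120, 119 and 124 CPM. Control males had 75.1, 103, 93.6, 96.3 and 93.8 CPM, and nPM males 80.3, 76.1, 111, 92.9 and 109 CPM. All 10 females were above all 10 males, as for 4.82% of all genes. Males were 26.0% lower than females (95% interval 17.7% to 33.5% lower), with a log2 difference of -0.43 (SE 0.074, limma p = 7.8e-06, adjusted p = 0.000122, n = 10 per sex). Exact permutation tests gave p = 0.00794 in controls and in nPM animals, the smallest value possible; in controls 19.8% of all genes did not overlap between the sexes, and in nPM animals 11.2%.

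The 3 lowest Igf1r values, 75.1, 76.1 and 80.3 CPM, were those of the 3 male libraries with raised blood markers. Across the 20 animals r with the blood markers was -0.74, with -0.85 in males and 0.27 in females. Without these 3 libraries the log2 difference between the sexes was -0.32 (limma p = 4.74e-05, exact permutation p = 5.14e-05, the smallest that 7 against 10 allow). The remaining males had 92.9 to 111 CPM and the females 112 to 147 CPM. All males already lay below all females, so leaving males out could not make the sexes overlap. The exact p without these libraries was therefore fixed in advance. Igf1r also followed the 5 excitatory neuron markers (r = 0.80, rho = 0.78, n = 20; r = 0.57 within groups, 0.73 in males and 0.24 in females), which summed to 2248 to 3445 CPM in females and 1567 to 2529 CPM in males. Gtf2i (r = 0.95) and Rnf10 (r = 0.94) had the patterns most like that of Igf1r. What part blood, neuron content, age or any EdU injections given to males alone have in the sex difference was not tested.

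Insr (chromosome 8, 3122061 to 3279617, minus strand) encodes the insulin receptor. Control females had 108, 102, 128, 104 and 115 CPM, and nPM females 109, 107, 104, 119 and 110 CPM. Control males had 87.0, 101, 94.7, 92.6 and 101 CPM, and nPM males 90.9, 90.3, 95.8, 98.2 and 105 CPM. The sexes did not overlap in controls, as for 19.8% of all genes. They did overlap in nPM animals, where nPM male 5 was above the lowest nPM female and 11.2% of all genes did not overlap. Males were 13.4% lower (95% interval 7.37% to 19.1% lower), with a log2 difference of -0.21 (SE 0.047, limma p = 0.000231, adjusted p = 0.00143, n = 10 per sex). Exact permutation p was 0.00794 in controls and 0.0159 in nPM animals. The call was lost without the 7 libraries rich in choroid plexus markers, with a log2 difference of -0.23 over 8 females and 5 males (limma p = 0.00754, exact permutation p = 0.00622).

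Insr moved with the share of a library's counts that fell on TEC genes, a class of Gencode models that rest on few transcripts and await experimental proof, many of them single-exon RNAs inside introns. This share was 0.458% to 0.853% in females and 0.254% to 0.460% in males. Over the 20 animals r was 0.89 (rho 0.88), with 0.89 in females, 0.52 in males and 0.75 after group means were removed. Among the 200 genes most like Insr, 131 were TEC genes, or 65.5%, where TEC genes made up 6.69% of the genes tested. The closest were Ralgapa2 and the TEC gene Gm42766 (both r = 0.94). Of 1325 TEC genes tested, 878 were lower in males and 8 higher at p under 0.005, with a median log2 difference of -0.88. The part of this class-wide difference in the Insr result was not tested.

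The receptors, though correlated over all animals (r = 0.77; 0.41 within groups), did not move together within females (r = -0.065) and did so in males (r = 0.79). This was not particular to the receptors, as in males each of them also followed Irs1 and Irs2 (r = 0.78 to 0.80). In females Igf1r followed Irs1 and Irs2 (r = 0.42 and 0.58), and Insr ran against them (r = -0.60 and -0.41). Igf1r showed little relation to the TEC share within a sex (r = -0.097 in females and 0.17 in males), and 21 of its 200 most similar genes were TEC genes (10.5%).

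**Figure D4:**
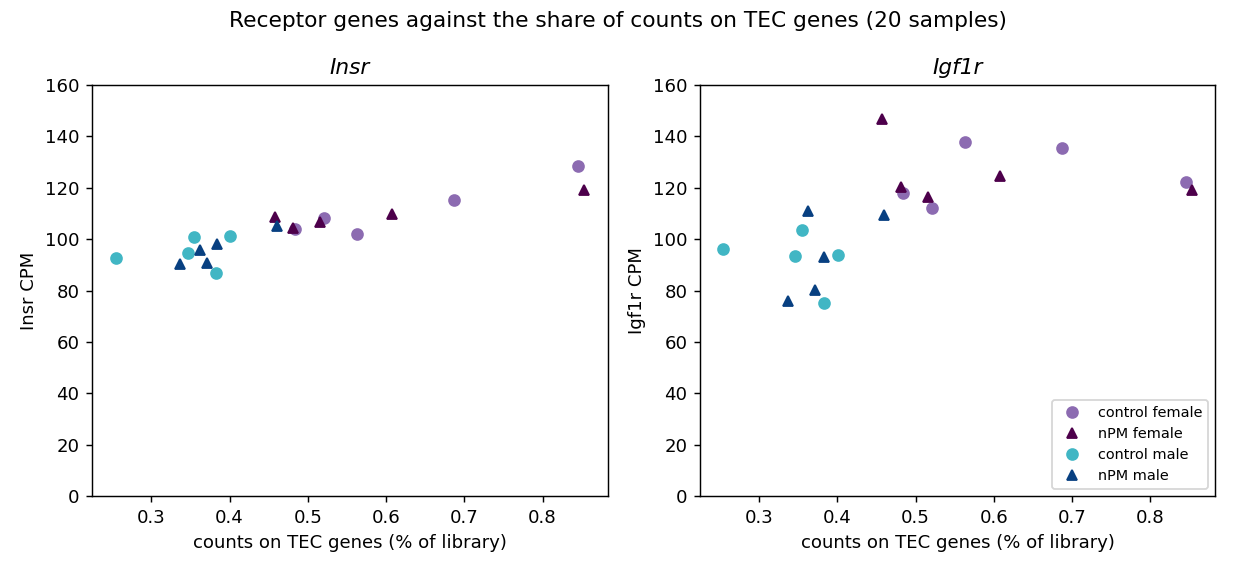
Insr (left) and Igf1r (right) in CPM against the percentage of each library's counts on TEC genes, with one point per animal; purple marks females and blue or turquoise marks males. Most females lie to the right of and above the males for both genes, and within each sex Insr climbs with the share (r = 0.89 in females, 0.52 in males) whereas Igf1r has no such slope (r = -0.097 and 0.17).

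Among the remaining genes, Igf1 differed between the sexes by 0.21 on the log2 scale, higher in males (SE 0.11, limma p = 0.0538, n = 10 per sex), Irs1 by 0.084 (SE 0.067, limma p = 0.219) and Igfbp5 by 0.056 (SE 0.078, limma p = 0.486). For Irs2 the log2 difference was -0.19 (SE 0.11, limma p = 0.0989, n = 10 per sex). The largest difference of the 10 in size was that of Igfbp2, 0.91 with higher values in males (SE 0.54, limma p = 0.104, n = 10 per sex), which was 0.38 without the libraries rich in choroid plexus markers. For Igfbp6 it was 0.30 (SE 0.30, limma p = 0.338, n = 10 per sex), and 0.73 without those libraries. In controls alone, Igfbp3 did not overlap between the sexes, as for 19.8% of all genes. It had 5.61 to 7.71 CPM in females and 7.72 to 22.2 CPM in males (exact permutation p = 0.00794), and the gap between the groups was narrow. In nPM animals it overlapped (exact permutation p = 0.429). Over the 10 genes, 20 exact tests were made between the exposure groups and 20 between the sexes. After Benjamini-Hochberg adjustment over all of these tests, the smallest adjusted exact permutation p was 0.0794.

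Each gene had its own pattern over the animals. Igf1 followed the interneuron markers (r = 0.73, rho = 0.63) and ran against the dentate gyrus markers (r = -0.63), with Vwc2 (r = 0.84) and Bend6 (r = 0.83) as the most similar genes. Irs1 followed the choroid plexus markers (r = 0.69), with Ntn4 (r = 0.80) and Vkorc1 (r = 0.78) most alike. Irs2 followed the excitatory neuron markers (r = 0.65), with Dpy19l3 (r = 0.86) and Kcnip2 (r = 0.84) most alike, and Igfbp4 was most like Lin7b (r = 0.80) and Car11 (r = 0.76). Among the 10 genes themselves, the highest r was that of Igf1r with Insr, followed by Igf1r with Irs2 (r = 0.64) and Irs1 with Igfbp2 (r = 0.61). The ligand and its receptor ran in opposite directions, with r = -0.62 for Igf1 and Igf1r over all animals, -0.57 in females and -0.48 in males. These are correlations over 20 libraries that share 4 groups, chosen as the extremes of many, and carry no test.

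**Figure D5:**
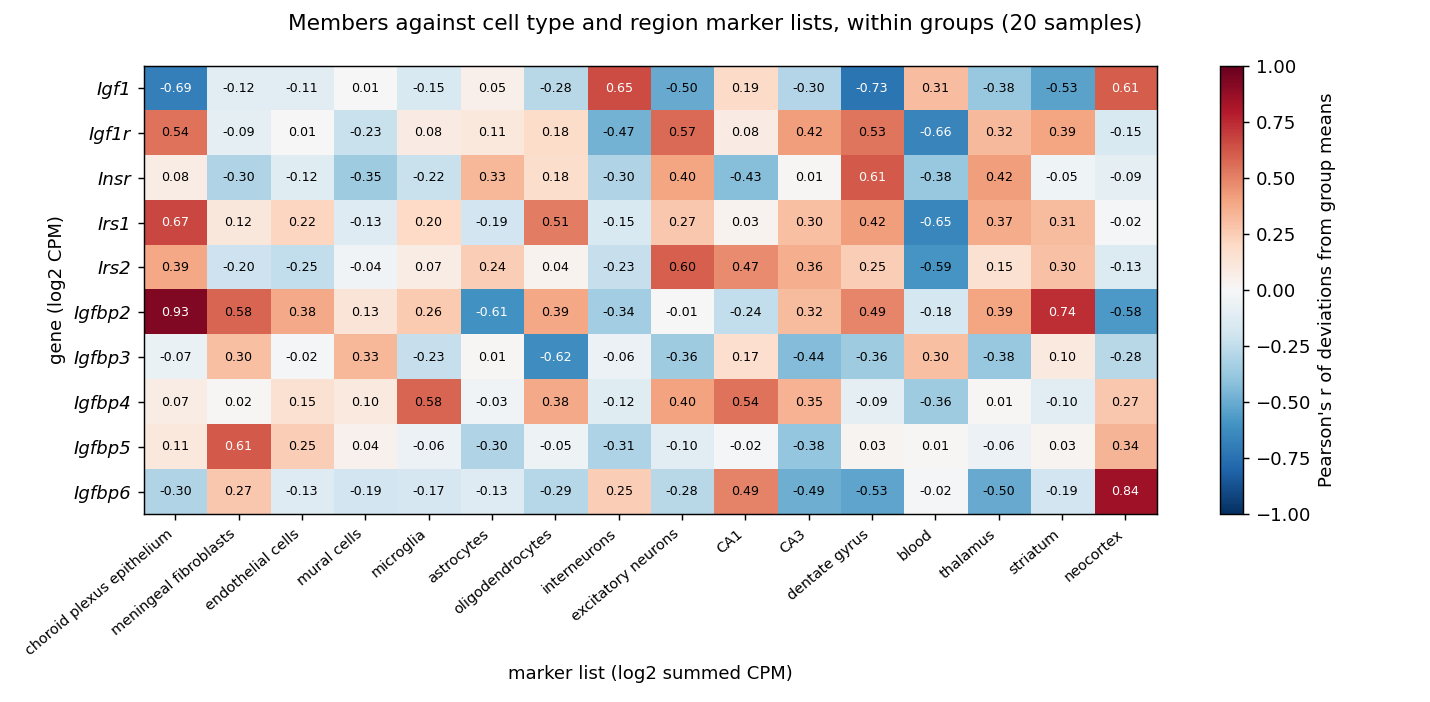
Pearson's r between the log2 CPM of each of the 10 genes (rows) and the log2 summed CPM of 16 marker lists (columns), computed on deviations from the 4 group means over 20 animals, with red for positive and blue for negative values. The deepest red cells are Igfbp2 with choroid plexus (0.93) and Igfbp6 with neocortex (0.84), and the deepest blue is Igf1 with dentate gyrus (-0.73).

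The wider pathway was described by 68 further genes, of which 60 passed the filter on low counts. After gestational nPM, 0 of the 60 passed p under 0.005 with both sexes, in males, in females or for the interaction. Unadjusted p under 0.05 was reached by Sh2b2, an adaptor (-0.33 with both sexes, SE 0.15, limma p = 0.0407, n = 10 per exposure, and -0.45 in females). In males it was reached by Deptor, an inhibitor of mTOR (-0.41, SE 0.15), and by Ptpn1, the phosphatase that acts on the insulin receptor (0.20, SE 0.090). Igf2r and Igfbpl1 reached it for the interaction. These 5 genes were named after their values had been seen, and 416 genes in all had an unadjusted p under 0.05 with both sexes, 848 in males, 393 in females and 751 for the interaction. Deptor passed p under 0.005 in males by the DESeq2 Wald test and, in limma, without control male 5.

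Of the other ligands, Igf2 had 125 to 5680 counts per library, its 6 highest CPM values all in libraries rich in choroid plexus markers. Ins1 had 0 counts in all 20 libraries, and Ins2 had 0 counts in 8 and at most 42, with 15 counts or more only in control male 2, 4 and 5, nPM female 1 and nPM male 2 and 3. Those 6 libraries were all rich in choroid plexus markers. The carriers Igfbp1 (0 to 6 counts) and Igfals (0 to 13 counts) were below the filter, as was the insulin receptor-related receptor gene Insrr (0 to 23 counts), whereas Igf2r was expressed at a median of 9.60 RPKM and Htra1, a protease that cuts binding proteins, at 44.4 RPKM.

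Between the sexes, 14 of the 60 pathway genes passed p under 0.005 (23.3%, against 31.1% of all genes). Of these 14, 4 were higher and 10 lower in males, where 13.9% of all genes were called higher and 17.1% lower. The mTOR branch was the longest list and had the most calls, and no list was tested as a set. In the mTOR branch 1 of 13 genes was higher, Akt1s1 (0.44, SE 0.093, limma p = 0.000104, n = 10 per sex), whose protein PRAS40 restrains mTOR complex 1. Lower in males were 6 of the 13: Tsc1 (-0.26), Tsc2 (-0.39), Rptor (-0.35), Mtor (-0.13), Rps6kb2 (-0.47) and Eif4ebp2 (-0.39). The products of Tsc1 and Tsc2 inhibit mTOR complex 1, those of Mtor and Rptor are parts of it, Rps6kb2 encodes a kinase downstream of it, and Eif4ebp2 encodes a repressor of translation that it turns off. Among 6 PI3K subunits, the catalytic Pik3ca (0.21) and the regulatory Pik3r3 (0.27) were higher in males and the catalytic Pik3cd (-0.31) was lower. The phosphatase gene Ptpn1 (-0.49, SE 0.089, limma p = 1.67e-05, n = 10 per sex) and the adaptors Shc2 (-0.26) and Shc3 (-0.38) were lower. Of 4 FOXO factors tested, 0 passed. The count of 14 fell to 9 without the libraries rich in blood markers and to 7 without those rich in choroid plexus markers, while that of all genes fell from 6147 to 5048 and 2940. Of the 14, 0 were ligands (2 tested), receptors (1 tested) or binding proteins and their carriers (2 tested), where 31.1% of all genes passed. The counts of 0 for these lists and for the FOXO factors rest on too few genes to be told apart from that share.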

How the data were processed

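RNA-seq counts of 20 hippocampi (5 per sex and exposure) were analyzed, with groups and replicate numbers taken from the sample labels. The authors depleted ribosomal RNA, trimmed reads where needed, aligned them with HISAT2 (mm10) and made counts per gene on Gencode M11. The submitters' processing notes name FastQC, Trimmomatic, HISAT2 and featureCounts 1.5.0-p3. Strand setting and handling of reads with several alignments are not given in the sources used here, so overlapping genes (Igf1 with Igf1os, Insr with Vmn2r-ps88 and Gm16180, Irs1 with Gm9747, Irs2 with 9530052E02Rik) could share reads. The deposited values were raw counts. The authors also deposited lengths and a mean RPKM per gene, which was recomputed from the counts and differed by at most 4.91e-11.

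Low genes were removed by filterByExpr in edgeR 4.0.16, given the 4 groups (minimum count 10, minimum total 15). After TMM scaling, fits by limma-voom (limma 3.58.1 in R 4.3.3) were made for exposure with sex as a covariate, exposure within each sex, the interaction, and sex with exposure as a covariate. The threshold was p under 0.005 after the study's methods, beside Benjamini-Hochberg adjustment over all genes. CPM used TMM library sizes and an offset of 0.5 counts before log2. Single genes within a group pair were tested by exact permutation, two-sided. Alternatives were the edgeR quasi-likelihood test, DESeq2 1.42.0, RLE normalization, no filter beyond 1 count, a replicate block and each sample left out. The fits were tested on simulated data. Named were the 10 genes, the pathway genes past the threshold with the ligands, receptors and binding proteins, and for each of the 10 the 2 genes with the highest r over 20 samples; some results under this rule are not reported here. The genes, the pathway list and the marker lists were chosen with earlier results of these data known. Depth limits genes with few counts most, and the allowance for a count of 0 covers counting error only. Samples of a group differed by 14.2 to 77.5 times counting noise, so none was a duplicate. Figures were drawn with Python 3.11.15 and matplotlib 3.10.9.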

Additional observations from a re-analysis of the deposited data

Results flagged for a closer look

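Of 40 sets of 5 values (10 genes in 4 groups), 3 held 1 value far from the others on the log2 CPM scale, where chance gives about 1 in 20 sets. In nPM males, Igf1 had 17.9 CPM in nPM male 1 and 12.1 to 13.5 CPM in the other 4, a gap of 0.721 of the group's range. Igf1r had 146.8 CPM in nPM female 1 and 116.5 to 124.4 CPM in the other nPM females, a gap of 0.715 of the range. Igfbp3 had 22.2 CPM in control male 1 and 7.72 to 9.43 CPM in the other control males, a gap of 0.811 of the range. The libraries nPM male 1 and control male 1 were among the 3 with raised blood markers, and nPM female 1 was the library highest in choroid plexus (8835 CPM) and striatum markers (364 CPM, against at most 121 CPM elsewhere). The part of these markers in the 3 values was not tested.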

How the results depend on the processing

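The count of 0 of the 10 genes past p under 0.005 after nPM held under each alternative with both sexes, in females and for the interaction; in males it became 1 (Irs2) without the libraries rich in blood markers. Between the sexes the count of 2 became 1 without the libraries rich in choroid plexus markers and was 2 under every other alternative and with each sample left out. Over 340 alternative values of log2 fold changes, 319 kept their direction and side of the threshold, 19 changed sign, 1 gained the threshold and 1 lost it. Both of these library sets were chosen after seeing the data; leaving out the choroid plexus set left 2 control males and 3 animals in each nPM group, and leaving out the blood set left 3 nPM and 4 control males.

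Values that changed sign all belonged to nPM effects or the interaction. For Igfbp2 with both sexes (-0.098) these were 0.41 by edgeR, 0.43 by DESeq2 and 0.040 with the replicate block. Without the choroid plexus libraries, both sexes gave 0.035 for Insr, 0.032 for Irs1 and 0.019 for Irs2; males gave 0.17 for Irs1, 0.022 for Igfbp2 and 0.0069 for Igfbp5; females gave 0.00064 for Igf1, -0.062 for Igf1r, -0.061 for Irs1 and -0.46 for Igfbp2; and the interaction gave 0.23 for Irs1 and 0.48 for Igfbp2. Without the blood libraries, both sexes gave -0.032 for Igf1, 0.0017 for Insr and 0.013 for Irs2, and males gave 0.0016 for Igfbp5. The cause was not tested.

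Of the other pathway genes, 1 passed in males by DESeq2 (Deptor), 1 in females and 1 for the interaction without the filter (Igfals in both), and 1 for the interaction without the choroid plexus libraries (Igfbpl1). Between the sexes 14 became 7 without the choroid plexus libraries and 9 without the blood libraries. Among all genes, with both sexes 28 became 43 by DESeq2, 71 without the filter and 14 without the choroid plexus libraries; in males 41 became 113 by DESeq2 and 130 without the filter; in females 18 became 55, 87 and, without the choroid plexus libraries, 29; for the interaction 43 became 66 by edgeR, 89 by DESeq2, 149 without the filter and 135 without the choroid plexus libraries; and between the sexes 6147 became 2940 without those libraries. Without the filter, the median log2 difference of all genes between the sexes was -0.10.

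With each sample left out, all genes past the threshold numbered 17 (without control female 1) to 47 (without nPM female 4) with both sexes, 23 to 78 in males (without nPM male 5 and nPM male 4), 10 to 48 in females (without nPM female 5 and nPM female 4) and 24 to 77 for the interaction (without control female 3 and control female 1), and 0 to 1 pathway genes passed in males. Log2 fold changes that changed sign ranged, with both sexes, from -0.025 to 0.042 for Igf1r, -0.063 to 0.050 for Irs2, -0.040 to 0.036 for Igfbp5, -0.021 to 0.021 for Insr, -0.045 to 0.070 for Igf1, -0.058 to 0.015 for Irs1 and -0.41 to 0.20 for Igfbp2. In males the ranges were -0.062 to 0.076 for Igf1r and -0.032 to 0.034 for Insr. In females they were -0.042 to 0.055 for Igf1r, -0.036 to 0.045 for Insr, -0.088 to 0.50 for Igfbp6, -0.025 to 0.080 for Igfbp3 and -0.0050 to 0.076 for Irs1, and for the interaction -0.068 to 0.079 for Igf1r and -0.020 to 0.062 for Insr.

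Deviations of same-numbered samples from their group means had r over 0.1 in 3 of 10 pairs between exposure groups and in 4 of 10 pairs between the sexes (-0.364 to 0.224). Samples with different numbers were not compared in this way, so these values cannot show whether the replicate numbers pair the samples. With the replicate block, 0 of the 10 genes passed after nPM and 2 between the sexes, as without it, and all genes numbered 20 with both sexes, 35 in males, 22 in females, 43 for the interaction and 5739 between the sexes. With 5 animals per group, genes with a wide spread such as Igfbp2 and Igfbp6 allowed only large changes to be seen. Igf1, Igfbp3 and Igfbp6 rested on at most 677, 596 and 290 counts per library.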
